A study of Rattus norvegicus with 18 samples.

Results

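The peaks described here are ATAC-seq peaks of rat neuronal cultures whose whole number in the fourth column of the deposited list, not described there and read here as a number of merged peaks, is 3. They were selected on values of the list itself, namely this number, a length under 4000 bp and a place on chromosomes 1 to 20. The rule took 34730 of the 187393 peaks on these chromosomes, or 18.5% (Wilson 95% confidence interval 18.4 to 18.7%), and of 192830 peaks in the whole list. They are called value-3 peaks below. Cultures were made from cortex, hippocampus or striatum of Sprague-Dawley rat embryos at embryonic day 18 and treated on day 11 in vitro for 1 h. Each culture system had 3 libraries treated with vehicle (neurobasal medium) and 3 treated with KCl, labelled 25 mM for the samples and 10 mM in the series text, 18 libraries in all. The authors pooled the libraries of a culture system across treatments before calling peaks, so the list holds no value per library, no spread between replicates and no read numbers, and the depth is unknown. All values below are therefore descriptions of peaks, their intervals cover variation between peaks and not between cultures, and no difference was tested.

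ATAC-seq marks open chromatin, because the Tn5 transposase inserts sequencing adaptors where DNA is not wrapped around nucleosomes. Promoters of broadly used genes tend to be open in many cell types, whereas distal enhancers are more often open in some of them, and the number of culture systems in which a site was called is a rough measure of how broadly it was open. Depolarisation with KCl opens calcium channels in neurons and induces immediate early genes such as Fos, Fosb and Nr4a1, whose distal enhancers are transcribed into enhancer RNAs.

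The sgRNA target sequences of the study give the most direct view of value-3 peaks, since they place a tested promoter or enhancer inside a listed interval. Of 14 target entries for promoters and enhancers of Fos, Fosb and Nr4a1, 13 lay in value-3 peaks, at 12 distinct positions in 7 different peaks. One of the 13, an Nr4a1 promoter target, is listed at 142891090, the same position as an Nr4a1 enhancer target of different sequence, so its listed position is in doubt. The study placed these targets at promoters and enhancers, so their lying in peaks can follow from that choice. Value-3 peaks are 18.5% of all peaks, and from 11.7 to 66.1% in the length bands of these peaks. The remaining entry, Fos enhancer3, lay in a peak of 2755 bp with a value of 4, just outside the rule. The first listed target of each of the 7 peaks and that of Fos enhancer3 are shown 5′ to 3′ as the study lists them, with the last 10 bases, which lie beside the PAM of a target written without it, in capitals. Their strand was not read here, and no genome of the Rn6 build was used.
Fos promoter: ggccacggctCTTGGGGAGC
Fos enhancer1: gaggagactaACTGAGCAGC
Fos enhancer2: gcctgttgtcATGACTGCCG
Fos enhancer3: gggtgggggcCTCTGACGGG
Fosb promoter: ggcgcggccgACTGTTTGTT
Fosb enhancer: gttgtttgtcCCCGGCCAGG
Nr4a1 promoter: gactgggaaaGCGACAAAGG
Nr4a1 enhancer: gtgtgtggaaACTTGTAGCG

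At Fos, which encodes a subunit of the AP-1 transcription factor, 3 successive value-3 peaks carried the promoter and 2 of the enhancers (Rn6, chromosome 6). The peak of enhancer1 ran from 109261764 to 109263539, with its target at 109262269, 382 bp from the centre. It was separated by 17797 bp from the peak of enhancer2, from 109281337 to 109282588, whose target at 109281666 lay 296 bp from the centre. A further 15883 bp separated that peak from the promoter peak, from 109298472 to 109301585, which holds the target at 109299229. These gaps were all above 10 kb, so the Fos peaks formed no cluster as defined below, in a 1 Mb window with 27 value-3 peaks among 104 peaks. In the study's list of enhancer-gene pairs used below, the peaks of enhancer1 and enhancer2 stand under Dlst and Isca2. Fosb, which encodes a partner of the same family, lay in closer company. Its promoter peak (chromosome 1, 80219812 to 80222479) and its enhancer peak (80231416 to 80232562), 8936 bp apart, belonged to a single cluster of 7 value-3 peaks that spanned 45325 bp, in a window where 46 of 85 peaks had this value. The 3 Fosb enhancer targets lay 9, 30 and 61 bp from the centre of the peak. At Nr4a1, which encodes an orphan nuclear receptor, the enhancer peak of 859 bp (chromosome 7, 142890557 to 142891415) was in a cluster of 4, and the promoter targets at 142911752 and 142911778 fell outside it, in a 1755 bp peak (142911111 to 142912865). The third promoter target is the doubtful entry at 142891090, inside the enhancer peak.

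The median value-3 peak was 1296 bp long (95% order-statistic interval 1289 to 1304 bp), and the quartiles were 983 and 1738 bp. The median was 430 bp at a value of 1, 829 bp at 2 and 3180 bp at 4 or more. Although value-3 peaks were 18.5% of the peaks, they held 31.4% of all bases in peaks on these chromosomes. Their share rose along the length bands. It was 1.13% of peaks below 500 bp, 11.7% from 500 to below 1000 bp, 42.6% from 1000 to below 1500 bp and 66.1% from 3000 to below 4000 bp. Length is part of the rule, and a merged peak spans every peak joined into it, so this rise is in part fixed by how the list was made. The shortest value-3 peak measured 212 bp (chromosome 14, 95145233 to 95145444) and the longest 3999 bp (chromosome 6, 69961152 to 69965150).

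**Figure D1:**
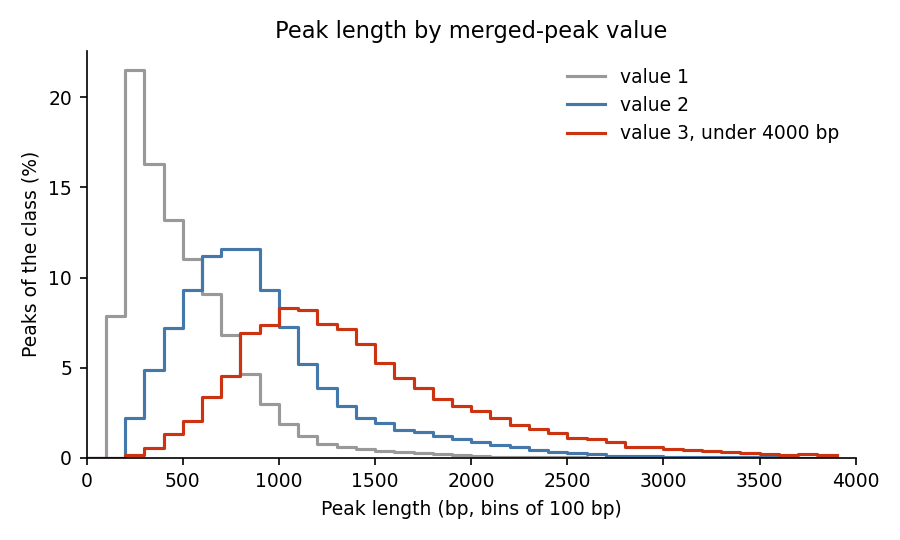
Share of peaks (%) in length bins of 100 bp for peaks with a fourth-column value of 1, 2 and 3 on chromosomes 1 to 20; each line sums over its own class. The curves shift to greater length with the value, with medians of 430, 829 and 1296 bp.

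The upper length limit fell in a thin tail. There were 46 value-3 peaks from 3900 to below 4000 bp and 33 from 4000 to below 4100 bp, and the first peak outside measured 4012 bp. A total of 348 peaks with a value of 3 were left out by length, with a median of 4601 bp. On the side of the value, 60571 peaks carried a 2 and 784 a 4. The fourth column is read here as the number of culture-system peaks merged into a listed one. Under that reading, peaks of the same culture system are more than 1000 bp apart and each at least as long as the shortest listed peak, 146 bp, so that a merged peak shorter than 1293 bp cannot hold 2 of them. That was the case for 17279 value-3 peaks, or 49.8% (49.2 to 50.3%), which must then combine 1 peak from each of cortex, hippocampus and striatum. For the longer ones the list does not say whether all 3 culture systems contributed.

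Start sites of genes frequently lay in value-3 peaks. The study pairs 96 activity-regulated TAPEs, transcribed putative enhancers outside genes whose RNA changed with stimulation, with 87 genes. The start sites of 45 of these genes, or 51.7% (Wilson 41.4 to 61.9%), lay in a value-3 peak. In contrast, 2 lay in a peak with a value of 1, 4 in a peak with a value of 2, 6 in longer or higher-valued peaks and 30 in no peak. Among the 57 start sites inside any peak, 78.9% (66.7 to 87.5%) were therefore in value-3 peaks. Of the 53 such peaks shorter than 4000 bp, 84.9% (72.9 to 92.1%) had a value of 3, beside a mean of 47.3% over all peaks of their length bands. The genes were chosen by the study with RNA values, and they do not stand for all genes. The 45 start-site peaks had a median length of 1606 bp (1483 to 1729 bp), and 5 of them, or 11.1%, lay in clusters, near the 12.1% of all value-3 peaks given below. The 45 genes, clustered or not, included Fos, Fosb and Klf4, a zinc-finger transcription factor, Igf1, a growth factor, and Mdm2, the ubiquitin ligase of p53. The listed start site of Nr4a1 lay in no peak, unlike its promoter targets. The start site of Junb, another AP-1 subunit, lay in a peak with a value of 3 but a length of 4685 bp, and that of Mn1, a transcriptional coregulator, in one of 4310 bp, both beyond the length limit.

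Promoter sequences of RefSeq (GRCr8, 300 bases around the start site) were found by symbol or synonym for 41 of these 45 genes, the others being Fos, B4galt6, Tnks and Unc93b1. Their median GC content was 62.3% (61.3 to 66.3%) against 51.7% over 33469 promoters, and they held a median of 25 CpG dinucleotides (21 to 28) against 7. The 33469 were all RefSeq promoters of 300 bases, not matched to the 41 by type of gene or by a peak at the start site. Whether the difference belongs to value-3 start sites was not tested. For the other genes of the list only 29 of 42, or 69%, had a sequence, so a comparison with them is void; over those 29 the medians were 54.7% and 9. The core of the cAMP response element, TGACG on either strand, was present in 15 of the 41, or 36.6%, in 9 of the 29, or 31%, and in 21.2% of all promoters. The full palindrome TGACGTCA, which contains that core, was found in 2 of the 41, or 4.88%, in 1 of the 29, or 3.45%, and in 1.83% of all promoters. The AP-1 motif TGANTCA was found in 0 of the 41, in 1 of the 29 and in 7.33% of all promoters. A count of 0 was taken to allow up to 3 counts, here a share of 7.32%, which is not a Wilson limit. No difference from all promoters is read from this. These are counts of letters in RefSeq start regions, which need not coincide with the Rn6 start sites. The promoters with the palindrome, named after the search, were those of Arl4d, a small GTPase of the ARF family, and Pdcl3, a phosducin-like protein. They are printed because they show the element in a promoter whose gene starts in a value-3 peak, with the palindrome in capitals. The Arl4d sequence is chr10:87100673-87100972 on the plus strand of GRCr8, and its start-site peak in Rn6 measured 1120 bp (chromosome 10, 89577711 to 89578830). The Pdcl3 sequence is chr9:48729833-48730132 on the plus strand, and its peak measured 1471 bp (Rn6, chromosome 9, 45671613 to 45673083).
Arl4d promoter: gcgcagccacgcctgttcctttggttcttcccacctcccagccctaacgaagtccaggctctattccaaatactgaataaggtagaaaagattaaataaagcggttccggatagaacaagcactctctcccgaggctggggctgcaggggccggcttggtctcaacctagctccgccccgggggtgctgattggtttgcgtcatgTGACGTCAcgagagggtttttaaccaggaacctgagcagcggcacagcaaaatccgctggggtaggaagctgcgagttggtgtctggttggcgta
Pdcl3 promoter: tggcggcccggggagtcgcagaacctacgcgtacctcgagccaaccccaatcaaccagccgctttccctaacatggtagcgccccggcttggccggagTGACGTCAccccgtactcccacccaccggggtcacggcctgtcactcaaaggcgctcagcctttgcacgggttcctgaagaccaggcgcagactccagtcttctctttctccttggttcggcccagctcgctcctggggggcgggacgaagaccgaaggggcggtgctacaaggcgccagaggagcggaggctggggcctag

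Among the activity-regulated TAPEs themselves, 61 of 96, or 63.5% (53.6 to 72.5%), were value-3 peaks. A value of 1 was carried by 6 of them and a value of 2 by 23, and 2 with a value of 3 lay on chromosome X, outside the rule. Because the share depends on length, it was also set beside peaks of the same length. For the 94 of these TAPEs that lay on chromosomes 1 to 20 and were shorter than 4000 bp, 64.9% had a value of 3, whereas the mean share of value-3 peaks over all peaks of their length bands was 40.7%. In the band from 1000 to below 1500 bp the numbers were 30 of 36 TAPEs, or 83.3% (68.1 to 92.1%), against 42.6% of all peaks. The longer bands held few TAPEs and did not all lie in that direction, with 3 of 6 from 2000 to below 2500 bp, or 50%, against 60%, and 4 of 8 from 3000 to below 4000 bp, or 50%, against 66.1%. For the cortex-selective TAPEs of the study the same comparison gave a smaller gap. Those of hippocampus and striatum were not analysed here, because the sheets under these names in the copy used repeated the cortex rows. Of 390, 141 were value-3 peaks, or 36.2% (31.5 to 41%), and for those within the length limit the share was 37.9% against 34.6% over their length bands. In both lists was 1 value-3 peak, which is 1.64% of the activity-regulated and 0.709% of the cortex-selective ones. Of all value-3 peaks, 0.406% were cortex-selective and 0.176% activity-regulated TAPEs. The study chose both lists from these peaks with RNA values, so the shares describe the lists. The length-band shares set beside them cover all listed peaks, including those inside genes and those without transcription on both strands. The study's full list of TAPEs was not used as a baseline. Whether the gap is particular to activity-regulated TAPEs was therefore not tested.

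Both ends of an enhancer-gene pair were value-3 peaks for 33 of the 96 pairs, or 34.4% (25.6 to 44.3%). The TAPE was a value-3 peak in 63.5% of pairs and the start site lay in one in 52.1%, and the product of these shares, 33.1%, was close to the share with both. In 28 pairs only the TAPE had this value, in 17 only the start site and in 18 neither. Between a value-3 TAPE and the start site of its paired gene lay a median of 5 other value-3 peaks (3 to 7), from 0 in 12 of 61 cases to 32. For Klf4, 1 value-3 peak lay between the start-site peak (chromosome 5, 72285939 to 72287942) and the TAPE (72407353 to 72408745), in a window with 9 value-3 peaks among 79. Mn1 was paired with 3 value-3 TAPEs on chromosome 12, and 2 of them, from 51198142 to 51199258 and from 51200881 to 51201770, were direct neighbours with 1622 bp between them.

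Value-3 peaks were unevenly spaced. The median gap from the end of one to the start of the next was 32434 bp (31904 to 33039 bp) over 34710 gaps, with quartiles of 13291 and 75007 bp, while the mean was 73894 bp. The median thus came to 43.9% of the mean, against 60.1% for peaks with a value of 1 and 55.4% for those with a value of 2. Scaled in this way, value-3 peaks had more gaps below 0.1 of the mean and more very long ones. The scaling allows for the different number of peaks in each class, but not for the fixed merging distance of 1000 bp. The mean gap was 28340 bp at a value of 1 and 42241 bp at a value of 2, so that distance is a larger part of it there. The shares below 0.1 of the mean are therefore not fully comparable between classes. Gaps below 0.1 of the mean made up 13.3%, against 10.7% and 8.12% at values of 1 and 2. Gaps up to 0.05 of the mean made up 4.04%, against 4.46% at a value of 1 and 3.06% at a value of 2, and gaps above 3 times the mean 6.44%, against 5.66% and 6.08%. The coefficient of variation of the gaps was 2.01, against 1.38 and 1.51. Only 18 gaps, or 0.0519%, were 1000 bp or less, against 0.145% at a value of 2 and 2.44% at a value of 1. Because peaks of the same culture system this close had already been merged, neighbouring value-3 peaks that hold the same systems can have few such gaps, so nothing is read from the classes at the shortest gaps. The closest pair, 484 bp apart, lay on chromosome 19 from 26547171 to 26548295 and from 26548780 to 26551109. A total of 166 gaps exceeded 1 Mb.

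**Figure D2:**
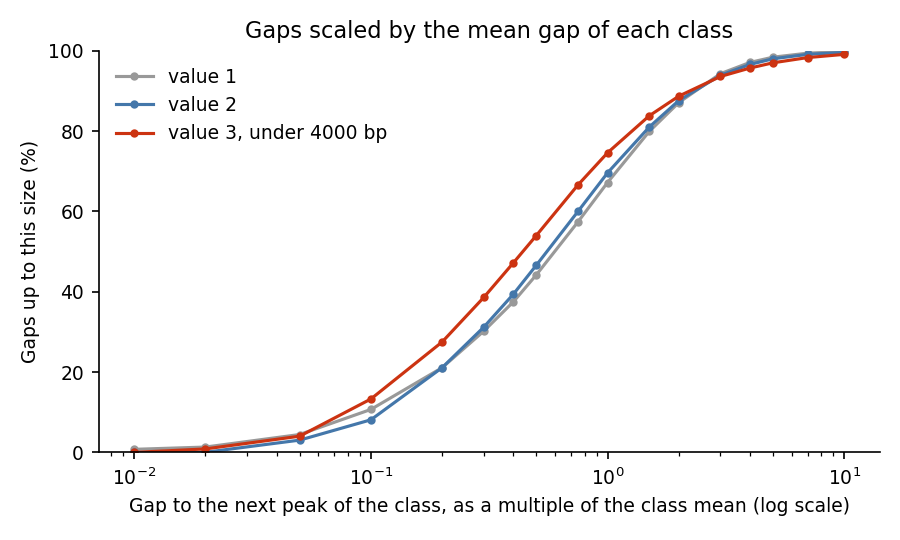
Cumulative share of gaps (%) between neighbouring peaks of the same class against the gap divided by the mean gap of that class (log scale), for values 1, 2 and 3. The value-3 curve lies above the others around 0.1 to 1 times the mean, where 13.3% of its gaps fall below 0.1, and below them beyond 3 times the mean.

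From the point of view of single peaks, 32.5% of value-3 peaks had another within 10 kb and 93.3% within 100 kb, and 116 had none within 500 kb. The most isolated one, of 1125 bp on chromosome 13 from 8466310 to 8467434, lay 1668317 bp from the next. It was not isolated from peaks of other kinds, since 84 of them lay within that distance, 61 with a value of 1 and 23 with a value of 2. The number of other peaks of any value within 50 kb differed little, with a median of 9 (8 to 9) around value-3 peaks and 8 around peaks with values of 1 or 2.

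The peak that followed a value-3 peak in the list was itself a value-3 peak in 9288 of 34727 cases, or 26.7% (Wilson 26.3 to 27.2%). After a peak with a value of 1 this share was 15.6% (15.3 to 15.8%), after a value of 2 it was 17.9% (17.6 to 18.2%), and after a value of 4 or more 31.1% (28.3 to 34%). After the 347 peaks with a next peak, a value of 3 and a length of 4000 bp or more it was 42.1% (37 to 47.3%). The share of value-3 peaks among the other peaks of the same 1 Mb window, averaged over value-3 peaks, was 23.7%, and that of the same chromosome 18.9%, so over all gaps the adjacent peak carried the same value more often than the surroundings held it. The share varied with distance without rising or falling throughout. At gaps of 2000 bp or less the share was 23.1% (21.4 to 24.8%), not above that window average, between 5000 and 10000 bp it was 27.7% (26.8 to 28.5%), and beyond 50000 bp it was 24.1% (21.3 to 27.2%).

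Next peaks of like length were compared after values of 1, 2 and 3. Among next peaks of 1000 to below 1500 bp, 55.4% (54.2 to 56.6%) had a value of 3 after a value-3 peak, against 38.1% after a value of 1 and 40.8% after a value of 2. Among short next peaks, below 500 bp, the shares were 2.57%, 0.67% and 0.903%. For next peaks from 3000 to below 4000 bp, the shares of 67.4% (62.8 to 71.7%), 65.7% (61.7 to 69.4%) and 64.2% (59.5 to 68.6%) had overlapping intervals.

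**Figure D3:**
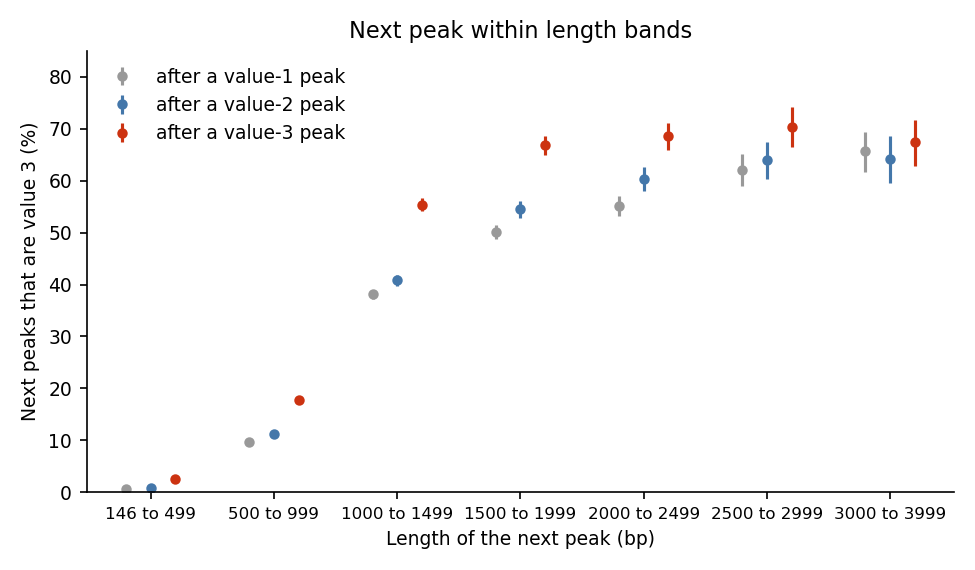
Share of next peaks in the list that are value-3 peaks (%), by length band of the next peak (bp) and by the value of the peak before it; bars are Wilson 95% intervals. After a value-3 peak the share is higher in the bands below 2500 bp, for example 55.4% against 38.1 and 40.8% from 1000 to below 1500 bp, and the intervals overlap in the longest band.

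Runs of value-3 peaks without any other peak between them were mostly short. Of 25442 runs, 19386 consisted of a single peak, so 55.8% of value-3 peaks had no such neighbour on either side, and 1877 runs of 3 or more held 6986 peaks, or 20.1%. The longest run had 16 peaks over 189567 bp on chromosome 4, from 157424609 to 157614175.

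Clusters were defined as 3 or more value-3 peaks joined by gaps of 10 kb or less, with other peaks allowed between them. There were 1141 clusters with 4186 peaks, or 12.1% (11.7 to 12.4%) of value-3 peaks, and 749 of them had exactly 3. By the same rule, 28.1% of the more numerous peaks with a value of 1 and 16.6% of those with a value of 2 were in clusters, but their largest clusters had 13 and 11 peaks, against 20 for value-3 peaks. A cluster spanned a median of 18126 bp (17657 to 18461 bp). Peaks in clusters had nearly the length of the others, with medians of 1290 bp (1264 to 1314 bp) and 1297 bp (1290 to 1305 bp).

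The largest cluster lay on chromosome 9 from 8537621 to 8637011. Its 20 value-3 peaks, from 255 to 3231 bp long, were 20 of the 22 peaks in that span and covered 29.1% of it, and the other 2 peaks carried a value of 1. The next had 17 of 19 peaks, on chromosome 16 from 21783590 to 21872330, and here the remaining 2 carried a value of 2. Chromosome 19 had 2 clusters of 13, among 15 peaks from 124442 to 198173 and among 17 peaks from 26395836 to 26466176. Most peaks listed in these spans thus carried a value of 3. By chromosome, the share of value-3 peaks in clusters ran from 6.22% on chromosome 14 to 22% on chromosome 19.

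Activity-regulated TAPEs with a value of 3 lay in clusters in 16 of 61 cases, or 26.2% (16.8 to 38.4%), and cortex-selective ones in 32 of 141, or 22.7% (16.6 to 30.3%). The share over all value-3 peaks was 12.1%. The genes paired with the 16 TAPEs were Fosb, listed with peaks of 1147 and 1558 bp in the cluster of 7; Nr4a1 and Grasp, a scaffold protein of glutamate receptors, in the same cluster of 4; Znf48, a zinc-finger protein, in a cluster of 5; and Tfip11, a splicing factor, and Lrrc2, each in a cluster of 4. The others lay in clusters of 3. They were paired with Junb, with Ppp3cb, a catalytic subunit of the calcium-dependent phosphatase calcineurin, with Elovl5, a fatty acid elongase, with Cox5a, a subunit of cytochrome c oxidase, with the chromatin protein Ing1, with the zinc-finger proteins Zfp516 and Repin1, and with Vill and Spata31d3. The TAPE of Junb, of 1401 bp on chromosome 19 from 26101190 to 26102590, lay in the second densest window described below.

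Density differed between chromosomes more for value-3 peaks than for peaks with a value of 1 or 2. Taking the end of the last peak as the end of a chromosome, there were 13.3 value-3 peaks per Mb over all 20, from 9.97 on chromosome 13 and 10.3 on chromosome 2 to 19.6 on chromosome 10 and 20.4 on chromosome 12. The highest density was 2.05 times the lowest, against 1.3 times for peaks with a value of 1 and 1.25 times for those with a value of 2, and the coefficient of variation over chromosomes was 21.6%, against 6% and 5.59%. The share of value-3 peaks among a chromosome's peaks ran from 15.5% (15 to 16.1%) on chromosome 2 to 26.8% (25.5 to 28.2%) on chromosome 12. Chromosome 12 had the lowest density of peaks with a value of 1, at 30 per Mb. Across the 20 chromosomes, value-3 peaks per Mb and all peaks per Mb, which share the same peaks and the same pools, had a Spearman correlation of 0.771. The median length of value-3 peaks varied little, from 1268 bp on chromosome 8 to 1341 bp on chromosome 19. On all 20 chromosomes a value-3 peak was followed by another more often than the chromosome's own share, and on all 20 the intervals did not overlap. The first 5 Mb of the chromosomes and the last 5 Mb before the last peak held 21.9% (20.9 to 22.9%) and 20.8% (19.9 to 21.7%) value-3 peaks among their peaks, and the stretches between them 18.3% (18.1 to 18.5%).

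**Figure D4:**
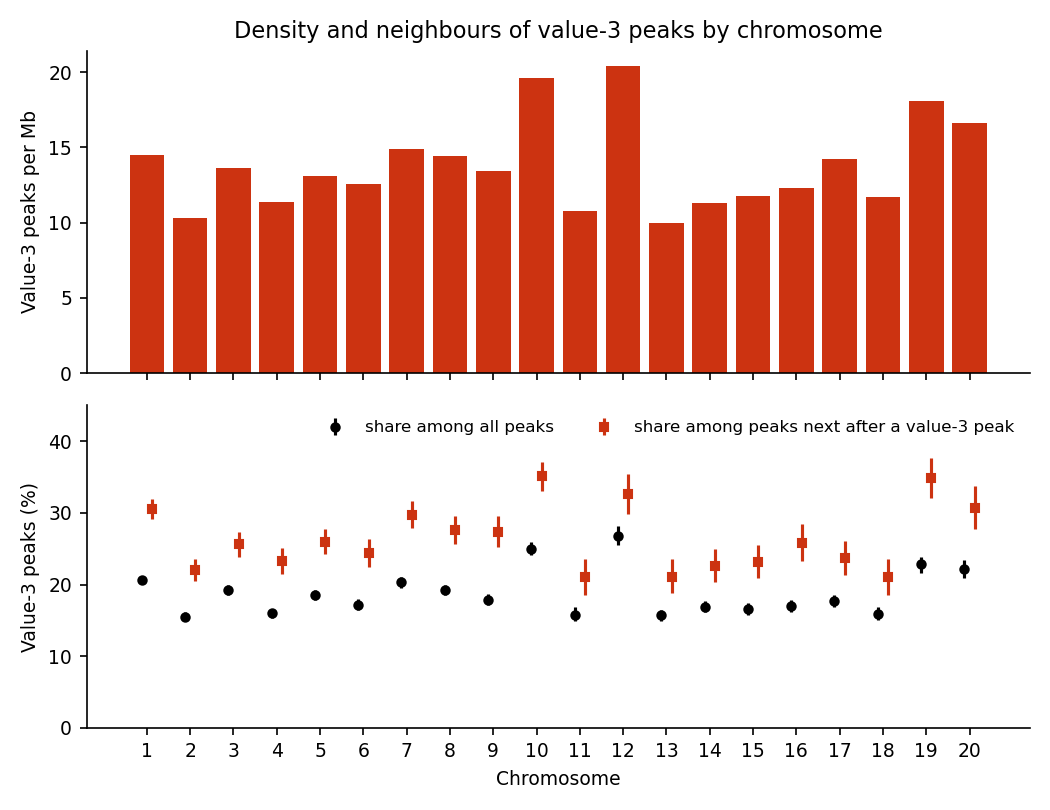
Top, value-3 peaks per Mb on each of chromosomes 1 to 20, counted to the last peak. Bottom, share of value-3 peaks (%) among all peaks of the chromosome (black) and among peaks that come next after a value-3 peak (red), with Wilson 95% intervals; density is highest on chromosome 12, at 20.4 per Mb, and the red points lie above the black ones on all 20 chromosomes.

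The 20 chromosomes were divided into 2609 full windows of 1 Mb. A window held a median of 11 value-3 peaks, with quartiles of 5 and 19 and a mean of 13.2. The variance was 8.38 times the mean, against 4.27 at a value of 1 and 5.03 at a value of 2. Over all peaks the ratio was higher, at 9.9. The ratio depends on the mean count, which was 34.7 at a value of 1, 23.1 at a value of 2 and 71.6 over all peaks. The coefficient of variation was 0.795, against 0.351 at a value of 1, 0.466 at a value of 2 and 0.372 over all peaks. Within single chromosomes the ratio of variance to mean averaged 7.96 and ran from 4.94 on chromosome 17 to 13.3 on chromosome 19. The 260 densest windows held 26.9% of the value-3 peaks in windows, whereas the 260 windows densest in peaks with a value of 1 held 15.9% of those. Windows with more peaks also had a larger share with a value of 3, from 11.3% (10.8 to 11.7%) in windows of up to 49 peaks to 21.7% (21.4 to 22%) in windows of 90 or more. The number of peaks in a window includes its value-3 peaks, so this rise is in part fixed by the grouping. Counts of value-3 peaks and of all other peaks in a window had a Spearman correlation of 0.479. Across windows, the Spearman correlation of value-3 counts with counts at a value of 2 was 0.595 and with counts at a value of 1 it was 0.269, where all points share the pools and the mappable sequence of a window. Over single chromosomes the latter ran from -0.298 to 0.682.

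**Figure D5:**
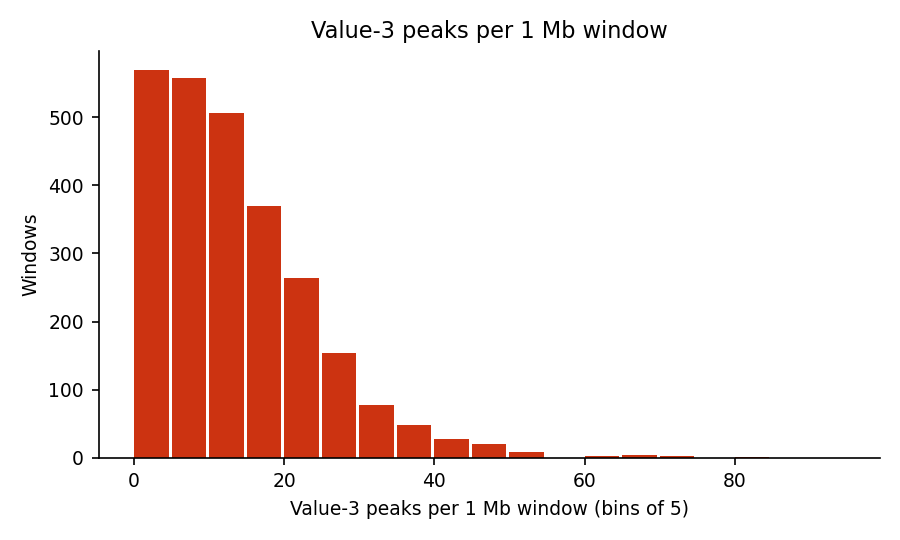
Number of 1 Mb windows (of 2609) by number of value-3 peaks in the window, in bins of 5. Most windows hold fewer than 20 value-3 peaks, 17 hold 50 or more, and the fullest holds 82.

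The fullest window, on chromosome 15 from 5000001 to 6000000, had 82 value-3 peaks among 140, or 58.6%, with 7 further peaks at values of 4 or more. The next were on chromosome 19, from 26000001 to 27000000 with 72 of 123 peaks and from 28000001 to 29000000 with 71 of 141. All 3 windows also held peaks beyond the length limit, with 11149, 8974 and 11532 bp for the longest of each, and 3, 5 and 9 peaks with a value of 3 and a length of 4000 bp or more. In these windows value-3 peaks had median lengths of 1417, 1455 and 1082 bp.

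No value-3 peak was found in 86 windows, or 3.3% (2.68 to 4.05%), and 2 or fewer in 342. All 86 held other peaks, with a median of 25.5 (23 to 28). The median over all windows was 74, which includes value-3 peaks. Of their peaks with a value of 1 or 2, 71.2% had a value of 1, against 60% over all windows. The window with the most peaks and no value-3 peak was on chromosome 3 from 135000001 to 136000000, where 47 peaks had a value of 1 and 26 a value of 2. It was followed by the window on chromosome 19 from 8000001 to 9000000, with 55 peaks, and that on chromosome 4 from 107000001 to 108000000, with 52. At the other end, the window on chromosome 7 from 8000001 to 9000000 held a single peak of 214 bp. Chromosome 13 had 13 windows without value-3 peaks, or 11.4% of its windows, and chromosomes 12 and 17 had none. The longest stretches of such windows were 3 Mb, on chromosome 6 from 83000001 to 86000000 and at 2 places on chromosome 13, from 3000001 to 6000000 and from 16000001 to 19000000. Genes in these windows were not named, as no annotation of Rn6 was used.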

How the data were processed

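ATAC-seq libraries (18) of cortical, hippocampal and striatal rat cultures were processed by the authors, who trimmed reads (Trim Galore 0.4.5, per the submitters' processing notes), aligned them to Rn6 with Bowtie2 2.3.4.2, handled alignments with SAMtools 1.9, pooled libraries per culture system, called peaks with MACS2, merged peaks of a culture system within 1000 bp, removed those under 146 bp and combined the culture systems. The deposited list gives positions and, in the fourth column, a whole-number score whose meaning is not stated, read as the number of merged peaks. Starts were converted to count from 1. A peak was assigned to a window by its centre, and incomplete last windows were left out. TAPEs were matched by identical start and end, after removing the extension of 500 bp. Gene start sites of the study's list served only to locate peaks. Intervals are Wilson (shares) or order-statistic (medians), at 95%. In place of drawn comparison lists, values were set within chromosomes and length bands. Functions were tested on simulated data. Python 3.11.15, numpy 2.4.6, pandas 2.3.3, scipy 1.17.1 and matplotlib 3.10.9 were used.

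The peaks and lists were chosen with earlier results of these data known. Named are loci with sgRNAs (Fos, Fosb, Nr4a1) or shown by the study (Klf4, Sik1, Kcnf1, Prox1, Mn1) where a paired TAPE, target or start site in the tables read here lies in a value-3 peak (for Sik1, Kcnf1 and Prox1 none was matched by name), genes paired with clustered TAPEs, and extreme windows, clusters and peaks. Igf1, Mdm2, Arl4d and Pdcl3 were named after their values were seen. Alternatives covered the length limits, chromosome X, the gap, cluster and window definitions and the matching of TAPEs. RNA values and distances to genes were not analysed here.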

Additional observations from a re-analysis of the deposited data

Results flagged for a closer look

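Peaks with a value of 3 and a length under 4000 bp were also listed outside chromosomes 1 to 20, in sequences that the rule leaves out. Chromosome X had 794 among 4404 peaks, or 18% (Wilson 95% interval 16.9 to 19.2%), close to the 18.5% of chromosomes 1 to 20, but its density up to the last peak was 4.96 per Mb against 13.3. Chromosome Y had 19 among 58, or 32.8% (22.1 to 45.6%). The scaffolds without a place on a chromosome had 242 among 973, or 24.9% (22.3 to 27.7%), with a median length of 1138 bp. The sex of the embryos and the number of copies behind each scaffold were not analysed here.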

How the results depend on the processing

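Of 38 alternatives for 11 results, 20 were labelled as leaving the value the same, and 4 were chosen after seeing the data. The label meant within the 95% interval for medians and shares, and within 1.5 times for counts. For the density per Mb and the ratio of variance to mean, it meant unchanged as printed. As means, the length was 1427.6 bp and the gap 73894.4 bp. Centre to centre, the median gap was 33899.5 bp. Adding chromosome X gave 12.8 value-3 peaks per Mb, and no limit on length 13.4 per Mb and 27.3% followed by another. Leaving peaks under 300 bp out of the list raised that share to 30.3%. This step kept 34674 of the 34730 value-3 peaks, so their share of the whole list also rose by construction. Joining distances of 5 and 20 kb gave 276 and 2556 clusters. Windows of 500 kb and 2 Mb gave ratios of variance to mean of 5.21 and 12.9 and left 510 and 7 windows without value-3 peaks, and windows shifted by 500 kb gave a ratio of 8.17. Keeping only the 17279 value-3 peaks below 1293 bp, fewer by construction, gave a median gap of 68619 bp, a ratio of 4.22, and 28.1% of activity-regulated TAPEs. Of these shorter peaks 13.8% were followed by one of their kind, against 9.22% among all peaks.

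No paired analysis was possible because the list holds no values per library, and leaving out single libraries was not possible for the same reason. Depth is unknown: a deeper pool yields more peaks, so a value below 3 does not show that a site was closed in a culture system, and the depth of the pools was not tested. The fourth column does not name the culture system. Peaks near one another share chromatin and mappable sequence, so the intervals, which treat peaks as independent, are narrow.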
